A study of Homo sapiens with 4 samples.

Results

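Germline genes are a set of genes used by eggs, sperm and their precursors, and their promoters are known to carry DNA methylation in most other human cells. The genes described here are 36 autosomal germline genes, listed by name for their known roles in germ cells. A promoter was the stretch from 1000 bp before to 500 bp after the MANE transcript start (hg38), and it was kept where at least 5 CpGs were listed in all 4 libraries. This left 33 of the 36 promoters, among 18118 promoters of protein-coding genes on the autosomes and X kept by the same count of CpGs. The 33 promoters hold 2268 CpGs in the reference, of which 2129 were listed in some library and 1518 in all 4.

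The cells were HUDEP-2, an immortalised erythroid progenitor line made from human umbilical cord blood, and all libraries come from this 1 line. One library was made from non-differentiated, untreated cells. The other 3 came from cells taken through 4 days of erythroid growth and 2 days of maturation, with 0.1% DMSO alone, with a DNMT1 inhibitor in DMSO, or with an EED inhibitor in DMSO, all added from the expansion stage on. Per the labels, untreated and DMSO cells make adult hemoglobin, and cells given either inhibitor made more fetal hemoglobin. Compound names and doses are not given in the sources used here. Each condition is 1 library, so every test below compares the reads of a pair of libraries and not the conditions, with no replicate check, and all intervals (95%) cover counting error only. The intervals take each CpG of a read as a separate trial, so they are too narrow where reads cover several CpGs.

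DNMT1 is the enzyme that copies methylation onto the new DNA strand after replication, so that a methylated CpG is passed on when a cell divides. EED is a core subunit of PRC2, the Polycomb complex that methylates histone H3 at repressed genes. Many germline genes have CpG-rich promoters that are methylated early in development and are held silent in somatic cells. They are a textbook example of CpG-dense promoters whose silence rests on DNA methylation. Their products include the PIWI pathway, in which small RNAs called piRNAs guide PIWI proteins to transposon transcripts, and the synaptonemal complex, which holds paired chromosomes together in meiosis. Expression was not measured in these libraries, so whether the genes were silent, and whether any was switched on by a compound, was not tested.

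Methylation of these promoters was high in non-differentiated and DMSO cells, fell under the DNMT1 inhibitor, and was near its DMSO level under the EED inhibitor. The median level over the 33 promoters, as methylated reads over all reads at the shared CpGs, was 73.9% in non-differentiated cells, 73.7% in DMSO, 32.5% under the DNMT1 inhibitor and 74.1% under the EED inhibitor. Sets of 4 levels are given in this order throughout. The same medians over all 18118 promoters were 28.3%, 27.5%, 5.68% and 27.8%. In DMSO, 10 of the 33 stood at 80% or more, 21 between 50% and 80%, 1 between 20% and 50% (DDX43) and 1 under 20% (TEX14). The name of the group, methylated germline promoters, thus fits 31 of the 33, and DDX43 and TEX14 are described apart. The mean coverage of a promoter's shared CpGs had a median of 20.3 to 22.3 reads per library over the germline promoters, close to the 21.2 to 23.2 over all promoters.

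**Figure D1:**
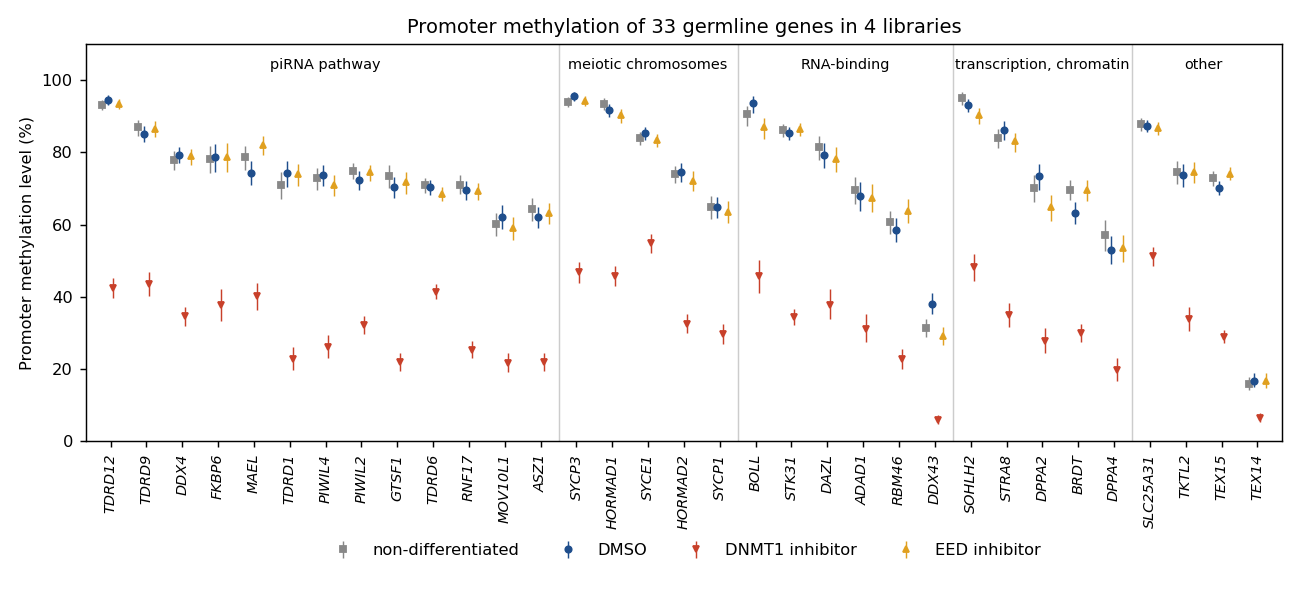
Promoter methylation level (%) of each of the 33 germline genes (x axis, grouped by role and ordered by DMSO level) in the 4 libraries, with bars for the 95% Wilson interval of the reads. The DNMT1 inhibitor points lie below the other 3 at every gene, while the non-differentiated, DMSO and EED inhibitor points lie close together.

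Sequences of 6 of the promoters are printed here because the results turn on them: each is the 250 bases just before the transcript start, from hg38, read 5′ to 3′ on the strand of the gene. In the first 3, capitals mark the motifs CACGTG (an E-box) and GGCGGGA or its reverse complement TCCCGCC (an E2F-type site), both taken up again further on. SLC25A31 (chr4:127730150-127730399, plus strand) has 4 E-boxes spaced evenly, SYCE1 (chr10:133565584-133565833, minus strand) kept the largest share of its methylation, and DDX4 (chr5:55737811-55738060, plus strand) holds both motifs.
SLC25A31: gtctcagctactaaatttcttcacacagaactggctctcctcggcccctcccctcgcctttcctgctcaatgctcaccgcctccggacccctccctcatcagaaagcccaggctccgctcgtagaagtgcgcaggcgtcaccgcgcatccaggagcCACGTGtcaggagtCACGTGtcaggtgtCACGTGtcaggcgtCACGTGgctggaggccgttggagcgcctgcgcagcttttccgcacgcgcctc
SYCE1: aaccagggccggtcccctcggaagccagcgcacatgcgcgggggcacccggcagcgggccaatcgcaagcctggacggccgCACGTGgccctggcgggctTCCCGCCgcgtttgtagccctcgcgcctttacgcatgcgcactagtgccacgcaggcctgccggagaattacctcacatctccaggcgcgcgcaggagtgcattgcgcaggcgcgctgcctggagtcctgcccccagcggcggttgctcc
DDX4: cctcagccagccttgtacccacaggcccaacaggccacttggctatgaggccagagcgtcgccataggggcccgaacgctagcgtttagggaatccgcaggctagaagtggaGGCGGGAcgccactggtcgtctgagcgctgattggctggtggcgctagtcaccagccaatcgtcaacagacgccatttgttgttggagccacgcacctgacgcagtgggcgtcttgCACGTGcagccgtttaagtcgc
Over the shared CpGs of these stretches, the DMSO and DNMT1 inhibitor levels were 92.6% and 51.2% for SLC25A31 (20 CpGs), 84.3% and 61.3% for SYCE1 (29 CpGs), and 86.3% and 43.0% for DDX4 (19 CpGs). All 3 stretches were thus at 80% or more in DMSO and above 40% with the inhibitor.

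In the next 3 sequences capitals mark every CpG. They show a promoter methylated throughout, SYCP3 (chr12:101739463-101739712, minus strand), a promoter whose densest part is thinly covered, DAZL (chr3:16605424-16605673, minus strand), and a promoter unmethylated at its start, DDX43 (chr6:73394578-73394827, plus strand).
SYCP3: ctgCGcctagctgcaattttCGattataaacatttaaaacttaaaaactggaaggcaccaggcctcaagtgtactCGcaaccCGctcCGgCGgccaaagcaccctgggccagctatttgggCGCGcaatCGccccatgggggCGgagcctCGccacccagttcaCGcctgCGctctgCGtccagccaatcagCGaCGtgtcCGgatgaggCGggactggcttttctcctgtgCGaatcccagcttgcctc
DAZL: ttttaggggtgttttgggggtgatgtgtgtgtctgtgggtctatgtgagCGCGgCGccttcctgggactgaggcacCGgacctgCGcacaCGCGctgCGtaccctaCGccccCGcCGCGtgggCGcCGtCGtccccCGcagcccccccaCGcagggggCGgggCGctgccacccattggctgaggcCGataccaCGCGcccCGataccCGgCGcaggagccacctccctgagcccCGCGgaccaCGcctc
DDX43: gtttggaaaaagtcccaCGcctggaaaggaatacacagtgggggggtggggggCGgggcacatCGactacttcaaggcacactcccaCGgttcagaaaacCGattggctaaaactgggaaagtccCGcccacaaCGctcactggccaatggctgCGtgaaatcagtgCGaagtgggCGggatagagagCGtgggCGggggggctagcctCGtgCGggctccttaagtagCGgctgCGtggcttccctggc
All 19 CpGs of the SYCP3 stretch were listed in every library, and their level was 97.5% in DMSO and 46.4% with the DNMT1 inhibitor. Of the 28 CpGs of the DAZL stretch, 4 were listed in every library, so most of that stretch was not analysed here. The DDX43 stretch holds 16 CpGs, and the 11 that were shared read 0.585% in non-differentiated cells, 0.521% in DMSO, 0.508% under the DNMT1 inhibitor and 0% under the EED inhibitor.

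Levels were compared between libraries with a 2-sided Fisher's exact test on the reads of each promoter. Its p-values were adjusted by Benjamini-Hochberg over the 18118 promoters. A call needed an adjusted p under 0.01 as well as 25 percentage points or more of difference. With the DNMT1 inhibitor, 32 of the 33 germline promoters were called lower and 0 higher, while 43.7% of all promoters were called lower. Among all promoters that stood at 50% or more in DMSO, 4917 of 4934 were called lower, so a call was the rule for any methylated promoter. The differences ran from −52.2 points at TDRD12 to −10.4 at TEX14, with a median of −41.3. The median over all promoters at 50% or more in DMSO was −49.0, so the germline promoters lost fewer points than that set. Reads that share a DNA fragment report several CpGs and are not independent. With the reads of each promoter divided by its number of CpGs, 9 of the 33 were called and 18.5% of all promoters.

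Most germline promoters kept a larger part of their DMSO level than the median promoter did. The share left is the level with the DNMT1 inhibitor as a percent of the DMSO level, computed where DMSO was at least 20%. Over the 32 germline promoters that qualified, the median share left was 44.6%, with quartiles of 37.7% and 48.8%. Over all 10698 promoters that qualified, the median was 23.8%, with quartiles of 17.5% and 31.2%. Of the 32, 29 lay above the upper quartile of all promoters and 1, DDX43, lay below their median. No test was made of this contrast, since the members were chosen with earlier results of these data known. The gap was similar among promoters at 50% or more in DMSO (medians of 44.8% and 25.4%) and among those of them in the CpG-dense class (45.9% over 23 germline promoters and 26.9% over 1794). That class is read from the reference, while shares rest on shared CpGs. The 23 had medians of 72 reference and 46 shared CpGs, and the 1794 had 102 and 23. The part of the unseen CpGs in this gap was not tested.

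**Figure D2:**
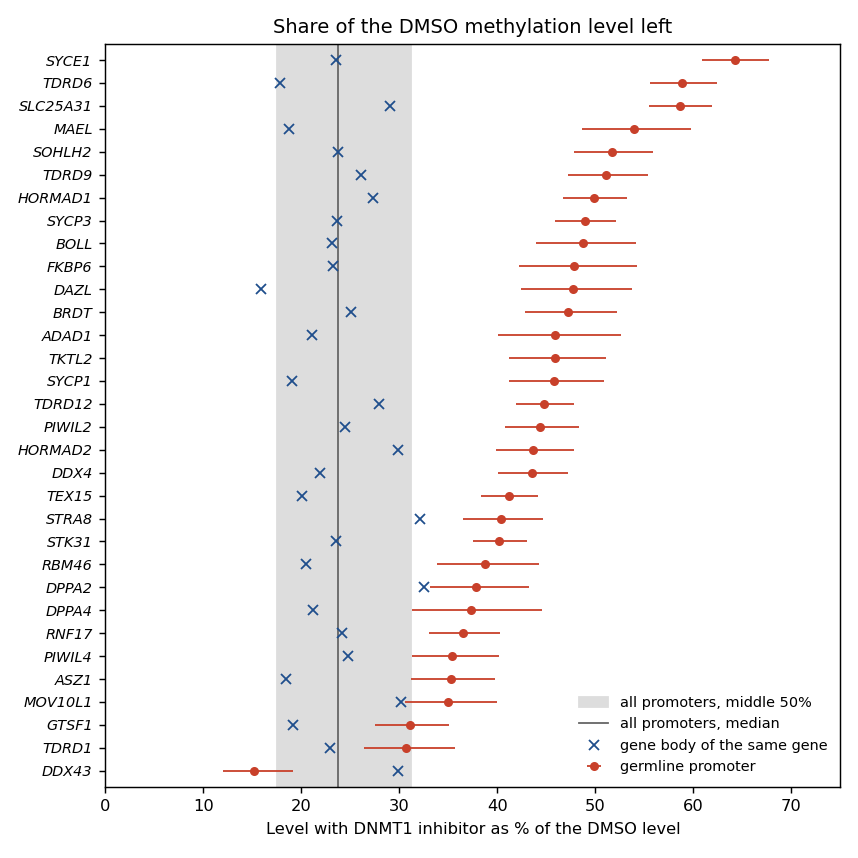
Share of the DMSO level left with the DNMT1 inhibitor (x axis, %) for the 32 germline promoters with at least 20% in DMSO (red points with 95% intervals), and for the gene body of the same gene (blue crosses). The grey band is the middle 50% of all 10698 promoters, from 17.5% to 31.2%, and 30 of the 31 promoters with a gene body value lie to the right of their cross.

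The median share left of the 13 piRNA pathway promoters was 43.5%. Of the PIWI proteins, which carry the small RNAs, PIWIL2 read 74.9% in non-differentiated cells, 72.3% in DMSO, 32.1% under the DNMT1 inhibitor and 74.4% under the EED inhibitor. PIWIL4 read 72.8%, 73.7%, 26.1% and 70.9%. Both lost more than 40 points with the DNMT1 inhibitor, and the shares left were 44.4% and 35.4%. PIWIL1 was not analysed here.

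DDX4, the VASA helicase that marks germ cells, lies on chromosome 5 (chr5:55737061-55738561, plus strand), in a stretch that also falls inside SLC38A9 on the other strand. Over 61 shared CpGs at 20.9 reads each in DMSO, it read 77.8% in non-differentiated cells, 79.4% in DMSO (interval 77.1% to 81.5%), 34.5% under the DNMT1 inhibitor (31.9% to 37.2%) and 78.8% under the EED inhibitor. The DNMT1 inhibitor library stood apart from the other 3, and its interval did not meet theirs. The difference from DMSO was −44.9 points (interval −48.2 to −41.3), and 43.5% of the DMSO level was left (40.1% to 47.2%). MAEL, the maelstrom protein needed for transposon silencing in germ cells, read 78.6%, 74.3% (70.8% to 77.5%), 40.1% (36.4% to 43.8%) and 81.9% in the same order, over 40 CpGs (chr1:166988280-166989780, plus strand). Its share left was 53.9% (48.6% to 59.8%), the fourth largest of the 32.

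The Tudor-domain proteins, which bind methylated arginines on PIWI proteins and build the germ granule, spanned both ends of the range. TDRD6 (chr6:46686885-46688385, plus strand) read 70.9%, 70.4% (68.3% to 72.4%), 41.4% (39.4% to 43.5%) and 68.4% in the 4 libraries, over 94 CpGs. Its share left, 58.8% (55.5% to 62.4%), ranked 84 from the top among all 10698 promoters. TDRD1 (chr10:114178353-114179853, plus strand) read 70.9%, 74.2% (70.4% to 77.7%), 22.8% (19.7% to 26.2%) and 73.9% over 25 of 43 listed CpGs, which left 30.7% (26.4% to 35.7%). The 2 genes were within 4 points of each other in DMSO, and their intervals with the inhibitor did not overlap.

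Of the other Tudor genes in this pathway, TDRD9 and TDRD12 began higher and RNF17 lower than these. TDRD9, a helicase with a Tudor domain, went from 85.2% in DMSO to 43.5% with the DNMT1 inhibitor (share left 51.1%), and TDRD12 from 94.6% to 42.4% (44.8%). The promoter of TDRD9 also covers part of ATP5MJ, on the opposite strand. RNF17, also a Tudor protein of the germ granule, went from 69.5% to 25.3% (36.5%).

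The remaining piRNA cofactors kept between 31.1% and 47.8% of their DMSO level. MOV10L1, the helicase that handles piRNA precursors, went from 62.2% to 21.7%. ASZ1, a mitochondrial scaffold of the granule whose promoter also lies in CFTR, went from 62.0% to 21.9%. GTSF1, a cofactor of PIWI cleavage, went from 70.4% to 21.9%, and it kept the least of these 4. FKBP6, a cochaperone of the pathway, went from 78.6% to 37.6% and kept the most of them, though 26 of its 76 listed CpGs were shared.

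The 5 promoters of meiotic chromosome proteins had a median share left of 48.9%. SYCE1, a central element protein of the synaptonemal complex (chr10:133565083-133566583, minus strand), read 83.9% in non-differentiated cells, 85.2% in DMSO (83.3% to 87.0%), 54.7% under the DNMT1 inhibitor (52.1% to 57.4%) and 83.3% under the EED inhibitor, over 82 CpGs. It and SLC25A31 were the only 2 of the 33 promoters above 50% with the inhibitor. The difference at SYCE1 was −30.5 points (−33.7 to −27.2), and the share left of 64.2% (60.9% to 67.7%) ranked 44 from the top among all 10698 promoters.

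SYCP3, a protein of the lateral elements (chr12:101738962-101740462, minus strand), was the most methylated member in DMSO. It read 94.0%, 95.6% (94.2% to 96.7%), 46.8% (43.8% to 49.7%) and 94.2% in the 4 libraries over 53 CpGs, and 48.9% was left (45.9% to 52.1%). Its window also holds part of CHPT1 on the other strand. SYCP1, the transverse filament protein, started lower, at 64.7% in DMSO, and stood at 29.7% with the inhibitor (share left 45.8%). Of the axis proteins that monitor pairing, HORMAD1 went from 91.7% to 45.7% (49.9%) and HORMAD2 from 74.6% to 32.5% (43.6%). MEIOB, a meiotic recombination factor, had 2 shared CpGs and was left out.

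The 6 promoters of germ-cell RNA-binding and related proteins had a median share left of 43.0%. DAZL, an RNA-binding protein needed for germ cell development (chr3:16604923-16606423, minus strand), read 81.4%, 79.3% (75.5% to 82.5%), 37.8% (33.8% to 42.1%) and 78.2% in the 4 libraries. This rests on 23 of 66 listed CpGs, and its share left was 47.7% (42.4% to 53.7%). Within 250 bp of the start it had 5 shared CpGs, at 81.2% in DMSO and 69.1% under the inhibitor, a difference of −12.0 points that was not called (adjusted p = 0.282, Fisher's exact test). BOLL, its relative in the DAZ family, went from 93.6% to 45.6% (48.8% left).

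RBM46, needed for entry into meiosis, went from 58.6% to 22.7% (38.7% left). ADAD1, a protein of spermatids, went from 67.9% to 31.2% (45.9%), and STK31, which joins a Tudor and a kinase-like domain, from 85.4% to 34.3% (40.2%). The shares left of these 3 genes fall inside the range of the piRNA genes.

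DDX43, a testis helicase, was the exception in this set. Its promoter (chr6:73393828-73395328, plus strand; OOEP lies on the other strand) read 31.3%, 38.1% (35.3% to 41.0%), 5.79% (4.65% to 7.19%) and 29.0% in the 4 libraries over 51 CpGs. The share left, 15.2% (12.1% to 19.1%), was the smallest of the 32. The average hides a sharp step. The 31 CpGs within 250 bp of the start read 0.168%, 0.591%, 0.160% and 0% in the same order, where a count of 0 allows up to 3 methylated reads. The 10 CpGs farther upstream read 95.2%, 94.0%, 16.5% and 92.5%, and the 10 farther downstream read 5.03% in DMSO. Nearly all methylated reads thus came from upstream of the CpG-dense start, and so did the loss with the inhibitor.

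For the 5 promoters of transcription and chromatin factors, the median share left was 40.4%. SOHLH2, a helix-loop-helix factor of early germ cells, went from 93.1% in DMSO to 48.1% with the DNMT1 inhibitor (51.7% left), and CCDC169-SOHLH2 shares its window. STRA8, which starts meiosis in response to retinoic acid, went from 86.2% to 34.8% (40.4%). BRDT, the testis bromodomain protein, went from 63.3% to 29.9% (47.3%). The paired genes DPPA2 and DPPA4, which act in early embryos and germ cells, went from 73.4% to 27.8% (37.9%) and from 53.0% to 19.8% (37.3%). CTCFL, the testis relative of CTCF, had 4 shared CpGs and was left out.

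Another 4 genes have roles in germ cell structure and metabolism, among others. SLC25A31, the ADP/ATP carrier of spermatogenic cells (chr4:127729400-127730900, plus strand), read 87.8%, 87.4% (85.5% to 89.0%), 51.2% (48.6% to 53.8%) and 86.7% in the 4 libraries. Its share left of 58.6% (55.5% to 61.9%) was the third largest. TKTL2, a transketolase-like gene, went from 73.7% to 33.8% (45.9%), and TEX15, which acts in transposon silencing in male germ cells, from 70.2% to 28.9% (41.2%).

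TEX14, a protein of the bridges between germ cells, was not called. Its promoter (chr17:58691545-58693045, minus strand) read 15.9%, 16.8% (14.9% to 18.8%), 6.38% (5.22% to 7.78%) and 16.7% over 59 CpGs, a difference of −10.4 points (adjusted p = 2.83e-18, Fisher's exact test). The same window holds the start of RAD51C on the opposite strand and IGBP1C on the same strand. The 47 CpGs farther than 250 bp upstream read 7.15% in DMSO, while the 6 CpGs from 250 bp downstream read 86.1% and 34.1% with the inhibitor. As at DDX43, a methylated and an unmethylated stretch were averaged, here with the methylated one inside the gene.

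**Figure D3:**
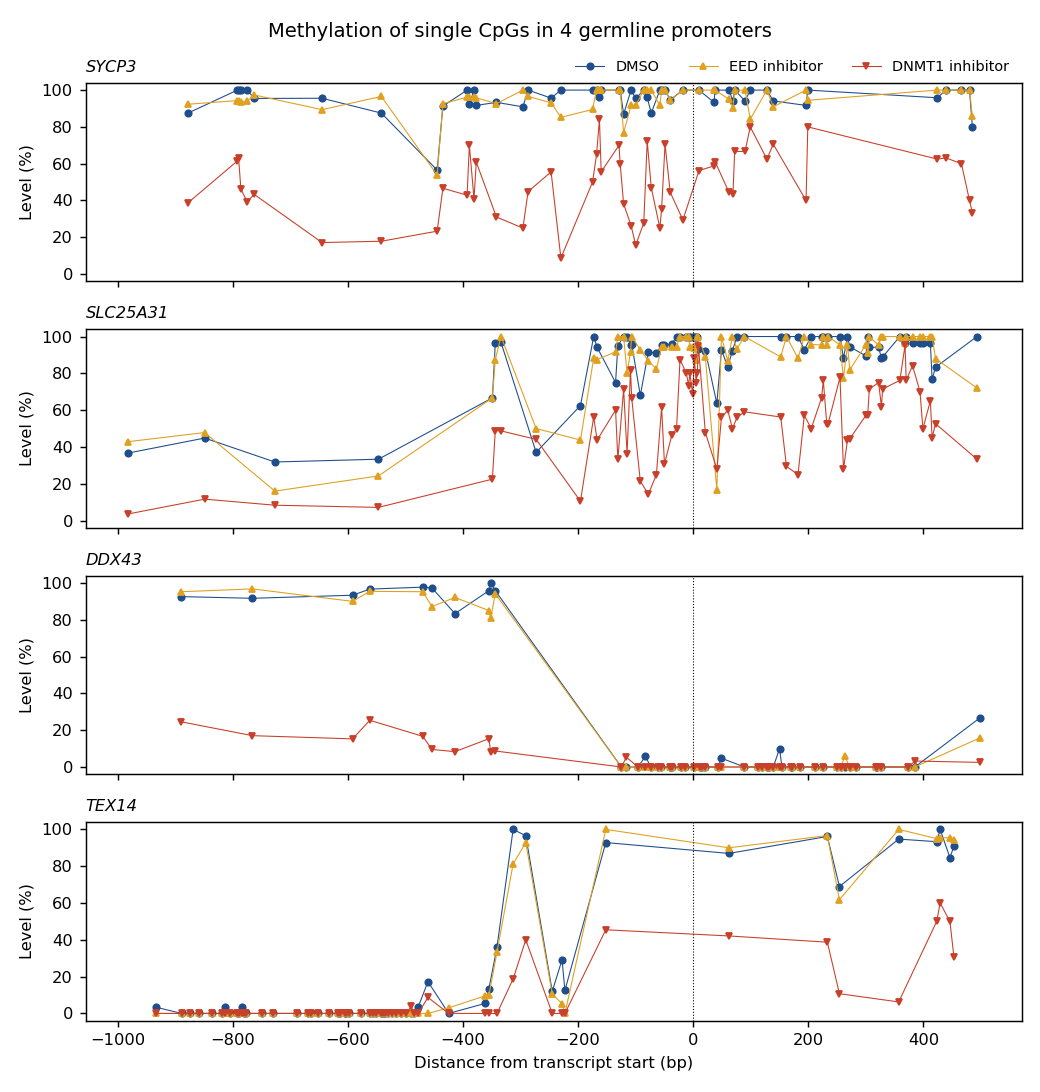
Methylation level (%) of each shared CpG against its distance from the transcript start (bp) in DMSO, EED inhibitor and DNMT1 inhibitor libraries for SYCP3, SLC25A31, DDX43 and TEX14; the non-differentiated library is not drawn. SYCP3 and SLC25A31 are methylated across the start and keep many intermediate CpGs with the DNMT1 inhibitor. DDX43 is methylated almost only upstream of its start and TEX14 mostly downstream.

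In most of the germline genes the promoter kept a larger share than the gene body. Over gene bodies, counted from 2000 bp past the start, the median share left was 23.6% for 31 germline genes and 26.2% for 9699 genes of the whole set. The promoter kept a larger share than the body of the same gene in 30 of the 31, with DDX43 the exception, and in 41.2% of all 9702 genes that could be compared. SYCE1 kept 64.2% at its promoter and 23.6% over its body, and TDRD6 kept 58.8% and 17.8%. Both genes thus sat near the top of all promoters while their bodies were below the median of all bodies. Starting levels differed too. In DMSO the body read 33.4% and the promoter 85.2% at SYCE1, and 51.9% and 70.4% at TDRD6. The median body level in DMSO was 59.5% over the germline genes and 72.0% over all genes that could be compared.

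In bins of 500 bp, the median share left of the germline promoters at 50% or more in DMSO peaked just after the start. It was 43.5% in the last 500 bp before the start and 49.9% in the first 500 bp after it, each over 31 genes. It was 32.5% from 1000 to 500 bp upstream. Into the gene it was 38.5% from 500 to 1000 bp and 33.6% from 1000 to 1500 bp, against 23.6% and 22.8% for all promoters at 50% or more in DMSO. Between 5000 and 2000 bp upstream, the bins ran from 18.6% to 28.2% over 17 to 20 genes each. The medians of all promoters at 50% or more in DMSO were 24.4% just before and 26.6% just after the start. With the reads of all CpGs pooled, the 33 germline promoters, DDX43 and TEX14 included, kept 50.5% within 250 bp of the start and 40.4% farther away. All autosomal promoters at 50% or more in DMSO, a set picked by level as the 33 were not, kept 33.6% and 28.6%. Both sets thus kept more near the start, and no test was made of the difference between them. Within 250 bp of the start, the median share left was 51.7% over 30 germline promoters and 26.8% over all promoters, both with at least 20% in DMSO in that window. Among CpG-dense promoters at 50% or more in DMSO over the whole promoter, with no minimum on the level near the start, the gap was smaller, with 53.3% over 21 germline promoters and 36.7% over 560 of all. The germline values ran from 25.7% at MOV10L1 to 85.2% at DAZL, whose 5 CpGs there give an interval of 70.8% to 102%.

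**Figure D4:**
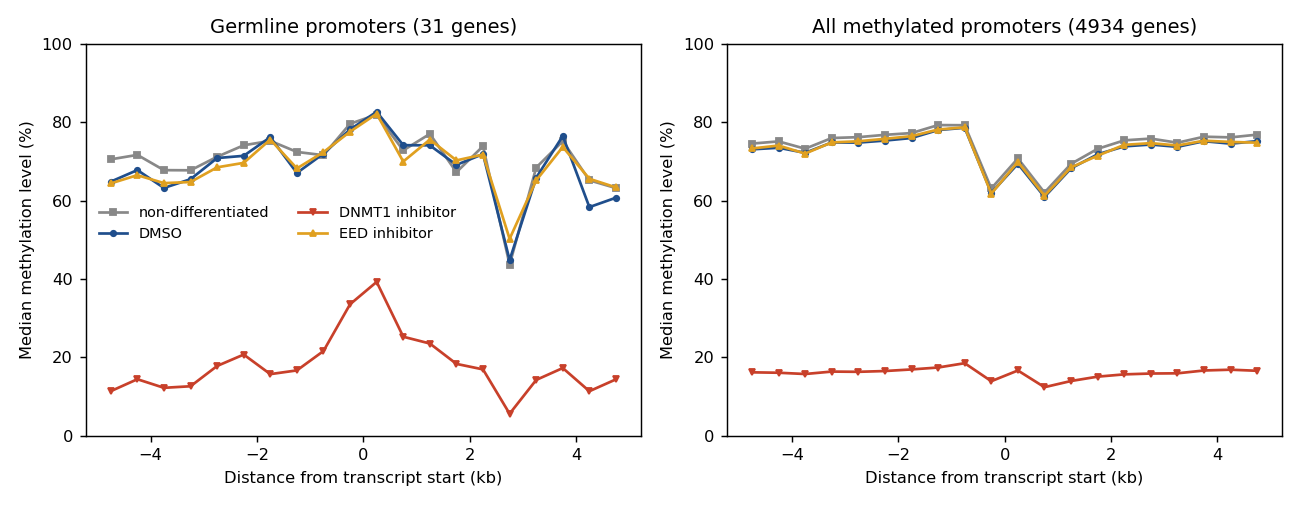
Median methylation level (%) in 500 bp bins against distance from the transcript start (kb) in the 4 libraries, for 31 germline promoters (left) and 4934 promoters (right) with at least 50% in DMSO. With the DNMT1 inhibitor the germline promoters rise from 21.6% to 39.3% at the start, while all promoters stay between 12.4% and 18.5%.

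Single CpGs show the same distribution. Of the 1518 shared CpGs in the germline promoters, 1400 fell below their DMSO level under the DNMT1 inhibitor and 24 lay above it. A fall was the rule for whole promoters too, since 17551 of all 18118 were lower than in DMSO. The share of single CpGs that fell was not counted outside the germline promoters. With the inhibitor, 57 of the 1518 germline promoter CpGs (3.75%) still read 80% or more. The same held for 0.284% of the autosomal CpGs and 0.166% of the CpGs in autosomal promoters. The starting shares differed too: in DMSO, 63.4% of the germline promoter CpGs read 80% or more, against 46.7% and 17.8%. These 57 lay in 18 genes, and 44 of them were within 250 bp of a start, where 730 of the 1518 lie. They had 10 to 45 reads each with the inhibitor (median 17), so counting error in a single level is large. At 50% or more, the germline promoters had 466 CpGs (30.7%), against 5.98% of autosomal CpGs and 2.52% of promoter CpGs. In DMSO the shares at 50% or more were 80.2%, 65.2% and 25.6% in the same order. SLC25A31 had 9 of the 57 and SYCE1 had 8.

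Coverage moved with these values. The 1117 germline promoter CpGs with under 20 reads in some library kept 49.7% of their DMSO level, and the 401 with at least 20 reads in all 4 kept 36.2%. Within 250 bp of the start the shares were 52.3% (645 CpGs) and 39.5% (85 CpGs), and farther away 45.8% and 35.5%. Over all autosomal promoters at 50% or more in DMSO, the same split gave 31.9% and 28.3%. With CpGs under 20 reads left out, the median share left was 36.1% for the germline promoters and 22.7% for all, now over 27 germline promoters, so the germline median stayed above that of all promoters while the gap narrowed. The part of coverage in the retained share was not tested.

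The members differed among themselves along with CpG content and starting level. Across the 32 genes of these 4 libraries, the share left had a Pearson r of 0.45 and a Spearman rho of 0.51 with the number of CpGs in the reference promoter, and of 0.62 and 0.56 with the DMSO level. The DMSO level is the denominator of the share, and genes are not replicates, so these are descriptions. DDX43 was lowest of the 32 in both DMSO level (38.1%) and share left (15.2%), and r without it was not computed. Over all 10698 promoters the same correlations were 0.08 and 0.09 with CpG number and 0.19 and 0.19 with DMSO level. The 24 CpG-dense members (a 500 bp window with an observed over expected CpG ratio above 0.75 and GC above 55%) kept a median of 45.9%, and the 8 of intermediate density kept 36.9%. For all promoters the medians of these classes were 24.6% and 27.2%, in the opposite order. The promoter share had little relation to the share of the gene's own body (r −0.18, rho −0.10, n = 31).

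With the EED inhibitor, 0 of the 33 promoters were called in either direction, while 0.0221% of all promoters were called higher and 0% lower. The differences from DMSO ran from −9.10 to 7.60 points, with a median of −0.54, and 21 were negative and 12 positive. Over all promoters, 8865 were negative and 9119 positive, with a median of 0.01. By the adjusted p of the Fisher test alone, 1 of the 33 passed, against 3.97% of all promoters, and 7 of the 33 had an unadjusted p under 0.05, as did 3832 of all 18118 promoters. The 1 was DDX43, at −9.10 points (interval −12.9 to −5.28, adjusted p = 0.000253 by Fisher's exact test). Its level averages the methylated upstream stretch and the unmethylated start by their reads, and the mean over CpGs, which gives each CpG equal weight, was 19.4% in DMSO and 18.3% with the EED inhibitor. By the same exact test, next were MAEL at 7.60 points (3.36 to 11.9, adjusted p = 0.0109), BOLL at −6.60 (adjusted p = 0.0153), DPPA2 at −8.67 (adjusted p = 0.0228) and BRDT at 6.26 (adjusted p = 0.0487). None of the 33 intervals for this difference reached beyond −13.8 or 11.9 points.

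Between non-differentiated cells and DMSO, 0 of the 33 were called, as were 0% of all promoters in either direction. The differences (DMSO minus non-differentiated) ran from −6.27 points at BRDT to 6.81 at DDX43, with a median of −0.48. By the Fisher test, 0 of 33 had an adjusted p under 0.01, against 2.63% of all promoters, and these 2 genes had an unadjusted p under 0.05, as did 3173 of all 18118 promoters. The mean over CpGs of DDX43 was 19.4% in both libraries. The level of each germline promoter thus moved by less than 7 points from non-differentiated cells to DMSO. The intervals reached −10.4 points at BRDT and 10.7 at DDX43. Differentiation and the DMSO vehicle cannot be told apart in this comparison.

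The 2 motifs were looked for because factors that bind them are known, in mouse and human cells, to bring a noncanonical Polycomb complex to germline promoters. The search covered both strands from 250 bp before to 50 bp after the start, in the 36 genes and in 19970 protein-coding genes. CACGTG was found in 12 of the 36 (33.3%) and in 8.75% of all promoters. GGCGGGA or TCCCGCC was found in 13 of the 36 (36.1%) and in 21.3% of all. Either motif was present in 22 (61.1%) against 28.0%, and both in DDX4, MAEL and SYCE1. A match is a run of letters and not a bound site. The median share left was 45.3% for the 12 germline promoters with an E-box and 44.0% for the 20 without, so it hardly differed, and it was 48.8% for 11 with the E2F-type site and 41.2% for 21 without. Over all promoters, the medians with and without were 24.9% and 23.7% for the E-box, and 23.8% and 23.8% for the E2F-type site.

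The CpG at the centre of the E-box was lower than its neighbours. In the 12 promoters, 17 E-box CpGs were listed in all libraries. Pooled over reads, they stood at 62.3% in non-differentiated cells, 65.9% in DMSO, 22.8% under the DNMT1 inhibitor and 61.5% under the EED inhibitor. The other CpGs of the same windows (208, leaving out those in ACGT) stood at 88.4%, 87.7%, 46.8% and 87.7%. The share left was 34.6% (28.1% to 42.7%) at E-box CpGs and 53.4% (51.6% to 55.2%) at the others. In the same windows the 5 CpGs in ACGT outside an E-box went from 78.1% to 23.5% (30.1% left, 21.3% to 42.5%). Over all kept germline promoters, the 15 such CpGs kept 45.0% (37.2% to 54.4%), and both intervals overlap that of the E-box CpGs. With the DNMT1 inhibitor 17 of 17 E-box CpGs lay below the median of the other CpGs in their window. In DMSO 16 of 17 did, with the second site of STK31 above. Sites in the same promoter were set against the same median. That median rested on 2 CpGs at SOHLH2 (73.1% with the inhibitor, against 71.4% at the site) and on 5 at TDRD1. This comparison with neighbours was made after the values of the sites were seen.

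At 3 genes the E-box CpG stood far below a methylated surrounding in DMSO, each on few reads. The site of MAEL, 211 bp before the start, read 9.09% in non-differentiated cells, 11.1% in DMSO, 5.56% under the DNMT1 inhibitor and 25.0% under the EED inhibitor, while the median of its neighbours in DMSO was 90.5%. The site of BRDT read 10.5%, 7.69%, 3.85% and 0%, with neighbours at 93.3% in DMSO. The shared site of TKTL2 read 9.52%, 17.4%, 3.85% and 20.7%, with neighbours at 87.9%. The 3 sites were thus at 25.0% or less in all 4 libraries. In SLC25A31, whose 4 E-boxes are printed above at 94, 80, 66 and 52 bp before the start, DMSO levels were 68.0%, 91.7%, 90.9% and 95.7%, and those with the DNMT1 inhibitor were 21.4%, 14.3%, 25.0% and 30.8%. There the sites were close to their neighbours (98.0%) in DMSO at 3 of 4 and below them (64.1%) with the inhibitor at 4 of 4.

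**Figure D5:**
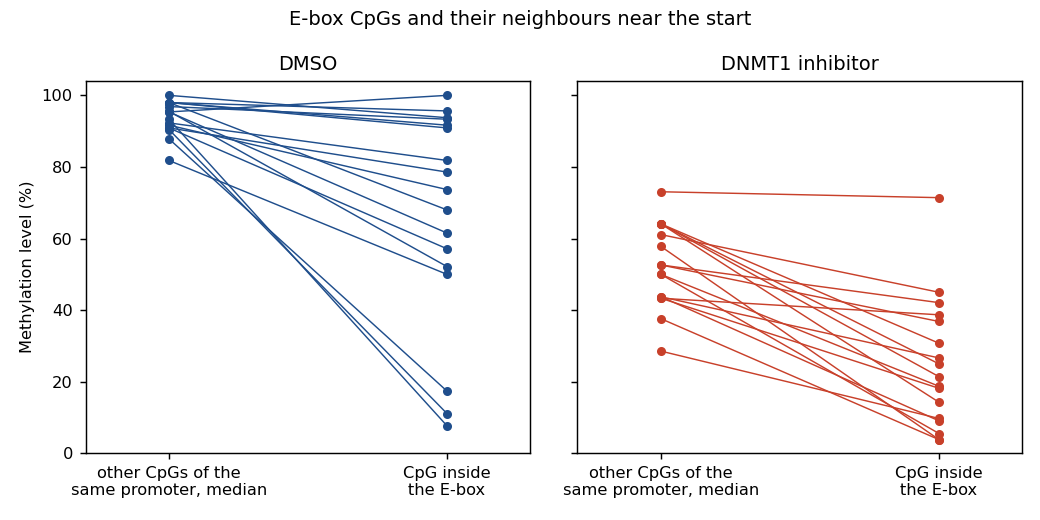
Methylation level (%) of each of the 17 E-box CpGs (right end of each line) and the median of the other CpGs from 250 bp before to 50 bp after the same start (left end), in DMSO and with the DNMT1 inhibitor. Lines fall in 16 of 17 cases in DMSO and in 17 of 17 with the inhibitor, and 3 sites are under 20% in DMSO.

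E-box CpGs also stood lower than their neighbours over all promoters at 50% or more in DMSO that hold one, a set that includes the germline promoters. There 200 E-box CpGs stood at 41.0% in DMSO and 10.5% under the DNMT1 inhibitor (share left 25.6%). Their 1404 neighbours stood at 61.0% and 26.1% (42.8%). CpGs in ACGT outside an E-box (57) stood at 59.9% and 18.5% (30.9%). The 11 shared E2F-type CpGs of the germline promoters had a median of 91.7% in DMSO and 35.3% with the inhibitor, and they were not compared with their neighbours.

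A further list of 88 germline genes outside the 36 gave 81 autosomal promoters that were kept. Of these, 58 were called lower with the DNMT1 inhibitor and 0 higher (43.7% of all promoters were called lower), with median levels of 64.2% in DMSO and 16.8% with the inhibitor. The median share left of the 66 with at least 20% in DMSO was 33.1%, between the 44.6% of the 32 and the 23.8% of all promoters. By role it was 39.7% for transcription and chromatin factors, 33.1% for meiotic chromosome genes, 33.6% for sperm and oocyte proteins and 25.6% for piRNA genes. The most methylated in DMSO were TERB1 (95.2%, then 46.7% with the inhibitor), which ties telomeres to the nuclear envelope in meiosis, PGK2 (94.1%, then 29.4%), the phosphoglycerate kinase of sperm, and TSSK2 (91.4%, then 24.8%), a testis kinase. The largest shares left among those called lower were at TERB2, the partner of TERB1 (54.6%, interval 49.5% to 60.3%), TOPAZ1 (52.8%, 48.7% to 57.3%) and MORC1 (51.2%, 47.0% to 55.7%). High retention was thus seen at some germline promoters outside the list, and not at all of the highly methylated ones.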

How the data were processed

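Whole-genome bisulfite libraries of 4 HUDEP-2 cultures, 1 per group, were used. The authors deposited, per CpG, a count of covering reads and the percent of them that read C (methylated) or T. Per the file headers these are methylKit tables with both strands merged, and all listed CpGs had at least 10 reads. The submitters' processing notes name Trim Galore 0.6.7, cutadapt 4.1, Bismark, Bowtie2 2.1.0, methylKit and hg38. Removal of duplicates is not given in the sources used here. Duplicates would make reads less independent, and the reads carry no molecular identifiers.

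Methylated reads were coverage times the percent, rounded, and every value came out as a whole read within about 0.0005 times its coverage. CpGs listed in all 4 libraries were used (23269121 of 25854361). Coverage summed over the listed CpGs was 672115916 to 741744952 per library, where a read over several CpGs counts once at each. Promoters came from GENCODE 44 MANE starts, or from the Ensembl canonical start where a gene had no MANE transcript. All kept germline promoters had a MANE start. The set of all promoters includes the X chromosome, except where it is called autosomal. Levels have Wilson intervals, differences Newcombe intervals and shares log-ratio intervals. Fisher's exact tests used SciPy 1.17.1 with Python 3.11.15, pandas 2.3.3, NumPy 2.4.6 and pysam 0.24.0. They were tried on simulated reads drawn independently, which cannot show the effect of reads that share a fragment. Figures used matplotlib 3.10.9.

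The members, the other germline list, the tests and the alternatives were chosen with earlier results of these data known. Every member was named. Full values were given for the 2 highest and 2 lowest shares left, the 2 lowest DMSO levels, and DAZL, DDX4, SYCP3 and MAEL. Of the other germline genes, the 3 with the highest DMSO level and the 3 with the largest share left among those called lower were named. SLC25A31, BOLL, DPPA2 and BRDT were described further after their values were seen. PIWIL1 had no listed CpG in its window, and MEIOB and CTCFL had fewer than 5 shared CpGs. Alternatives were a coverage minimum of 20 reads, CpGs over 100 reads left out, other windows, unweighted means, at least 10 shared CpGs, reads divided by CpGs and a looser threshold.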

Additional observations from a re-analysis of the deposited data

How the results depend on the processing

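No paired analysis was possible because each group has 1 library, and no replicate could be left out. No difference between the DNMT1 inhibitor and DMSO changed sign. The small differences between the other 3 libraries did: the median was lower in DMSO than in non-differentiated cells as reported and higher as an unweighted mean, and likewise for DMSO against the EED inhibitor. When the reads of a promoter were divided by its CpGs, the germline promoters called lower with the DNMT1 inhibitor fell from 32 to 9. Those of the other germline list fell from 58 to 23 of 81, and the share of all promoters called from 43.7% to 18.5%. In the germline promoters, 23 genes lost their call with the same difference, since fewer reads entered the test. With a window of 250 bp on either side of the start, the other list had 34 of 59 called and the germline promoters 28 of 31, against 22.3% of all promoters. BOLL and SOHLH2 dropped out there, the calls of DAZL (−12.0 points), DDX43 (−0.43) and DPPA4 (−12.9) were lost, and TEX14 (−35.3) was called. With CpGs of at least 20 reads, 26 of 28 were called (52.4% of all promoters), BRDT (−23.7) lost its call, and BOLL, DDX4, DPPA2, FKBP6 and MOV10L1 dropped out. At an adjusted p under 0.05 and 10 points, 33 were called (68.3% of all promoters), and 0 for differentiation (1.27%) or the EED inhibitor (2.12%), as under the other alternatives run for those.

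The median share left, 44.6%, was 36.1% with at least 20 reads (27 promoters), 51.7% within 250 bp and 40.5% in a window from 2000 bp upstream. The cause was not tested. The other 5 alternatives for it gave 44.2% to 45.2%. The median levels of the 4 libraries, non-differentiated first and then DMSO, the DNMT1 inhibitor and the EED inhibitor, were 75.4%, 76.0%, 34.7% and 75.2% as unweighted means over CpGs. They were 72.1%, 71.9%, 23.8% and 71.8% with at least 20 reads, and 79.8%, 80.5%, 39.3% and 79.9% within 250 bp. Depth limits which CpGs are seen: 1518 of the 2129 listed CpGs of these promoters had at least 10 reads in all 4 libraries.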
